A study of Mus musculus with 6 samples.

Results

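The 8 genes described here encode secreted factors that act on blood and lymphatic vessels: the vascular endothelial growth factors Vegfa, Vegfb and Vegfc, placental growth factor (Pgf), the angiopoietins Angpt1 and Angpt2, the peptide apelin (Apln) and the endothelial proteoglycan endocan (Esm1). They were taken by gene symbol from a table of 25206 probe sets, and each of the 8 genes had 1 probe set. The table holds expression in the choroid plexus of aged C57BL/6J mice of 20 to 22 months (n = 3) and of young C57BL/6J mice of 2 to 3 months (n = 3), with no treatment or mutation named. Each array was hybridised with RNA from 1 mouse, and values are normalized log2 expression per gene.

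The choroid plexus hangs in the brain ventricles and secretes cerebrospinal fluid. Its capillaries have fenestrations, small pores closed by diaphragms, and in mice these depend on VEGF made by the overlying epithelium. VEGF-A acts through the receptor Kdr and also binds Flt1, VEGF-B and placental growth factor bind Flt1, and VEGF-C acts through Flt4. Angpt1, made mainly by mural and stromal cells, activates the endothelial receptor Tek, and Angpt2, stored and released by endothelial cells, opposes it in many settings. Apelin acts through Aplnr, and apelin and endocan are both enriched in endothelial tip cells, the cells that lead a growing sprout.

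The tissue label was set against defining markers of its epithelium. The mean of 10 such markers lay between 11.14 and 11.23 on the aged arrays and between 10.95 and 11.31 on the young ones. Array medians ran from 4.03 to 4.09, and array pairs correlated at 0.982 to 0.990 over all probe sets. The brightest value was 12.13 on young replicate 1 and 13.29 to 13.32 on the other arrays, and the cause was not tested. These values lie far above every value given for a ligand gene. Markers of neurons and glia varied between animals, with a mean over 8 genes of 5.23 to 7.55 on the aged arrays and 6.32 to 7.18 on the young ones. As a guide to background, the 95th percentile of 1345 olfactory and vomeronasal receptor probe sets was 3.46. Of the 8 ligand genes 6 had a mean over all arrays above that guide, Esm1 by little, and the other 2, Pgf and Apln, did not.

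The 250 bases before the transcription start were read from RefSeq promoter sequences (GRCm38.p6) for 6 of the 8 genes, 8 windows in all. The windows of Vegfb, Vegfc and Vegfa are shown because the aged and young values of these VEGF genes were placed differently. None of these differences passed over the whole table (limma adjusted p = 0.606, 0.684 and 0.936). Vegfb was higher and Vegfc lower on every aged array than on every young one, and the Vegfa groups overlapped. The gaps were narrow, 0.09 for Vegfb and 0.03 for Vegfc. Of all probe sets 6.69% were likewise higher and 6.93% lower without overlap. The windows shown lie at chr19:6987652-6987901 (minus strand), chr8:54077282-54077531 (plus strand) and chr17:46032378-46032627 (minus strand, the more upstream of 2 annotated starts). Capitals mark the GC box GGGCGG on either strand, the core letters bound by Sp-family factors.
Vegfb: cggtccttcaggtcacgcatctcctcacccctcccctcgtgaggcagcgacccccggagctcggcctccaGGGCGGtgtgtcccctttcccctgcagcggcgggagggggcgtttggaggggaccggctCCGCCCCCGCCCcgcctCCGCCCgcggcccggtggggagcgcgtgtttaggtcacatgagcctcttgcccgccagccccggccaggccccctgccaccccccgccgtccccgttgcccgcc
Vegfc: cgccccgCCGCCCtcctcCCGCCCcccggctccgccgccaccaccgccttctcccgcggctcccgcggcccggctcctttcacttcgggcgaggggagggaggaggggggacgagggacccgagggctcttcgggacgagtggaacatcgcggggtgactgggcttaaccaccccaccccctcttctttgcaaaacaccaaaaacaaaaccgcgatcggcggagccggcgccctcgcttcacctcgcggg
Vegfa: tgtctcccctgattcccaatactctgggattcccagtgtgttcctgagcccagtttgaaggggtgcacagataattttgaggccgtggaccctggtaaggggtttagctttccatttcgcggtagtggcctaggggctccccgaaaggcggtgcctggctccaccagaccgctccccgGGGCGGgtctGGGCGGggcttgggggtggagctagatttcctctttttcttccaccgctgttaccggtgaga
The Vegfb window held 4 GC boxes, and the Vegfc and Vegfa windows held 2 each. Of the 8 ligand windows 6 held a GC box, against 32.7% of all 32851 promoter windows of this length. G and C made up 76.4% of the Vegfb window, 71.6% of the Vegfc window and 59.2% of this Vegfa window, where the median of all windows was 52.4%. The core of the hypoxia response element (ACGTG or GCGTG, either strand, with 0 bases shared with a GC box in these windows) was in 4 of the 8 windows, against 38.6% of all windows. It occurred 2 times in the Vegfb window and 0 times in the Vegfc and Vegfa windows shown. The window of the other Vegfa start, not shown, held it 2 times. That window lies downstream of the start used here, at chr17:46025164-46025413 (minus strand). These matches describe letters only.

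With age, no ligand gene passed the test over the whole table, and the angiopoietins stood lowest relative to young tissue. Limma called 0 of 8 ligand genes at a Benjamini-Hochberg adjusted p under 0.05, where it called 15 of all 25206 probe sets higher (0.0595%) and 5 lower (0.0198%) in aged tissue. At an unadjusted p under 0.05 there were 2 lower ligand genes, Angpt1 and Angpt2, and 1 higher, Vegfb. Over all probe sets 3.96% were lower and 3.82% higher at that level. The groups did not overlap for 3 lower ligand genes, Angpt1, Angpt2 and Vegfc, and for 1 higher, Vegfb, where 6.93% of all probe sets were so placed on the lower and 6.69% on the higher side. The median log2 difference of the 8 genes was 0.00, as over all probe sets, and single genes ranged from -1.48 to 0.36. In bulk tissue, fewer cells of a type and less RNA per cell cannot be told apart.

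**Figure D1:**
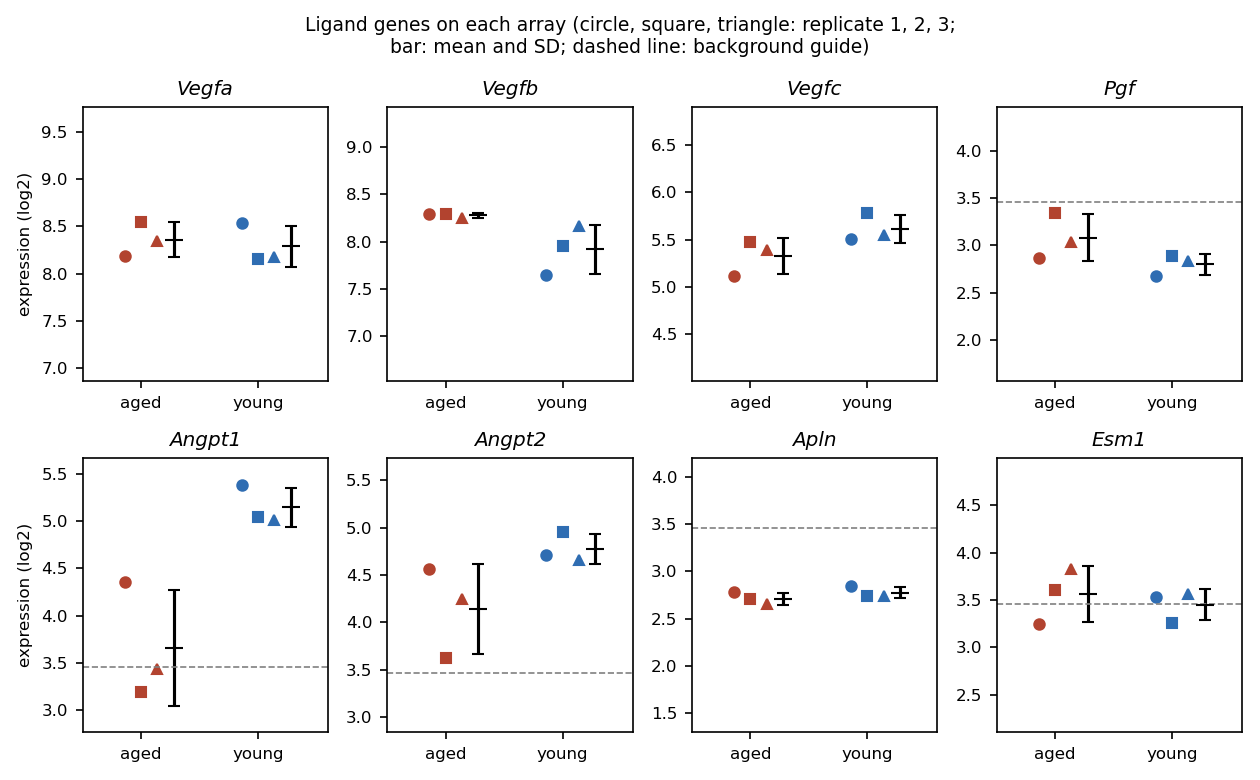
Expression (log2) of the 8 ligand genes on each array, aged at left and young at right of each panel, with marker shapes for replicates 1 to 3, the mean and SD beside the points, and a dashed line at the background guide of 3.46. All panels span the same log2 range. All 3 aged values of Angpt1 lie below all 3 young values by at least 0.65, while Vegfa, Pgf, Apln and Esm1 overlap between ages.

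Angpt1 (probe set 11600_at) had values of 4.36, 3.20 and 3.43 in aged mice, against 5.38, 5.04 and 5.01 in young mice. The groups were apart by 0.65, and aged replicates 2 and 3 lay under the background guide while every young array was well above it. The means were 3.66 ± 0.61 in aged and 5.15 ± 0.21 in young tissue (SD, n = 3 each), a log2 difference of -1.48 (95% interval from -2.14 to -0.83), or a 2.79-fold lower level in aged mice. This ranked 98th by p among all probe sets and did not pass (unadjusted p = 8.3e-04, limma adjusted p = 0.212). Since 2 of the aged values lay under the background guide, the difference may be compressed, which was not tested. Angpt1 had a q-value of 0.212 over all probe sets, and of 0.127 over a filtered subset, in the authors' deposited table, which holds the same test.

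The call on Angpt1 turned on a single animal. Without aged replicate 1, its highest aged array, the log2 difference was -1.83 and passed (limma adjusted p = 0.0132). Leaving out this array also raised the calls over all probe sets, to 27 higher and 25 lower from 15 and 5. Without any other single array the Angpt1 difference stayed between -1.55 and -1.25, with limma adjusted p from 0.335 to 0.638. Aged replicate 1 also had the highest mean of neuron and glia markers of the 3 aged arrays, 7.55 against 5.23 and 6.71 on aged replicates 2 and 3. The part of these markers in the Angpt1 values was not tested.

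Angpt2 (11601_at) had values of 4.56, 3.62 and 4.24 in aged mice, against 4.71, 4.95 and 4.65 in young mice. The aged values lay below the young ones by a gap of only 0.09, with aged replicate 2 lowest, as it was for Angpt1. The means were 4.14 ± 0.48 in aged and 4.77 ± 0.16 in young tissue (SD, n = 3 each), a log2 difference of -0.63 (95% interval from -1.16 to -0.10, limma adjusted p = 0.565). Without aged replicate 2 the difference was -0.37. That array also had the lowest mean of neuron and glia markers, 5.23, and their part in the Angpt2 values was not tested.

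Whether the angiopoietins differed unequally was asked on each array by subtracting the log2 value of Angpt1 from that of Angpt2. A level of this difference has no meaning across probe sets, so only its shift between groups is read. It was 0.20, 0.42 and 0.81 on the aged arrays, against -0.67, -0.09 and -0.36 on the young ones. The groups did not overlap, and the shift toward Angpt2 was 0.85 in aged tissue (two-sided exact permutation p = 0.1, the smallest that 3 against 3 arrays can give, so the test cannot reach 0.05). With Angpt1 under the guide on aged replicates 2 and 3, the size of this shift is not exact. Another family member, Angpt4, which also binds Tek, stood close to background at 3.38 ± 0.11 in aged and 3.57 ± 0.09 in young tissue.

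Among the VEGF ligands, Vegfb (22340_at) had values of 8.29, 8.29 and 8.25 in aged mice, against 7.64, 7.95 and 8.16 in young mice. The aged arrays were close together above a wider young group, and the nearest young value, that of replicate 3, was only 0.09 below the lowest aged one. The means were 8.28 ± 0.02 in aged and 7.92 ± 0.26 in young tissue (SD, n = 3 each), a 1.28-fold difference whose log2 value was 0.36 (95% interval from 0.02 to 0.69, limma adjusted p = 0.606). Without young replicate 1, the array whose scale ended lowest, the log2 difference of Vegfb was 0.22.

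Vegfc (22341_at), the lymphatic growth factor, had values of 5.12, 5.47 and 5.39 in aged mice, against 5.50, 5.78 and 5.54 in young mice. The groups were separated by 0.03, less than the SD of 0.19 in aged and 0.15 in young tissue. Aged minus young came to -0.28 on the log2 scale (95% interval from -0.60 to 0.03, limma adjusted p = 0.684), and to -0.18 without aged replicate 1. Its relative Vegfd, the other ligand of Flt4, overlapped between ages at 4.30 ± 0.24 in aged and 4.24 ± 0.21 in young tissue.

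Vegfa (22339_at) had values of 8.19, 8.55 and 8.35 in aged mice, against 8.54, 8.15 and 8.18 in young mice. The groups overlapped over nearly their whole range, with the lowest aged value between the young ones. The means were 8.36 ± 0.18 in aged and 8.29 ± 0.22 in young tissue (SD, n = 3 each), and the 95% interval of the log2 difference, -0.28 to 0.42, leaves a change of either sign within it (limma adjusted p = 0.936).

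Pgf (18654_at) had values of 2.86, 3.35 and 3.04 in aged mice, against 2.68, 2.89 and 2.84 in young mice. All 6 values were under the background guide, and aged replicate 1 lay among the young arrays. Aged minus young came to 0.28 on the log2 scale (95% interval from -0.06 to 0.62, limma adjusted p = 0.703), and to 0.15 without aged replicate 2. At this level a change of the transcript could go unseen.

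Of the tip cell ligands, Apln (30878_at) had values of 2.78, 2.71 and 2.65 in aged mice, against 2.85, 2.74 and 2.74 in young mice. These too lay under the guide on every array and overlapped, with a log2 difference of -0.06 (95% interval -0.30 to 0.17, limma adjusted p = 0.915). Esm1 (71690_at) had values of 3.25, 3.60 and 3.83 in aged mice, against 3.53, 3.26 and 3.56 in young mice, on either side of the guide. It overlapped between ages, with a log2 difference of 0.11 (95% interval -0.28 to 0.50, limma adjusted p = 0.910).

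Most receptors of these ligands stood lower on every aged array than on every young one, without passing over the whole table. Limma called 0 of 9 receptors and co-receptors, and 7 were lower at an unadjusted p under 0.05 with groups that did not overlap. Over all probe sets 3.96% were lower at that level, and 6.93% were lower without overlap. The median log2 difference of the 9 genes was -0.69, where that of all probe sets was 0.00.

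Kdr, the main signalling receptor for VEGF-A, had values of 6.01, 6.15 and 5.85 in aged mice, against 7.09, 6.66 and 6.43 in young mice, and its groups did not overlap (log2 difference -0.73, limma adjusted p = 0.386). Flt1, the receptor shared by Vegfb and Pgf, had 5.08, 4.91 and 5.24 in aged mice, against 6.13, 5.49 and 5.86 in young mice, again without overlap (log2 difference -0.75, limma adjusted p = 0.371). The VEGF co-receptors Nrp1 and Nrp2 differed by -0.41 and -0.36. Flt4, the receptor of Vegfc, overlapped at 3.67 ± 0.10 in aged and 3.65 ± 0.18 in young tissue, close to background.

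Tek, the angiopoietin receptor, had values of 3.52, 3.39 and 3.45 in aged mice, against 4.58, 3.78 and 4.44 in young mice. The aged values were near the background guide and all below the young ones (log2 difference -0.81, limma adjusted p = 0.388). Tie1, which pairs with Tek, stood at 3.81 ± 0.12 in aged and 4.50 ± 0.20 in young tissue (limma adjusted p = 0.246), and Ptprb, the phosphatase that dampens Tek, at 4.84 ± 0.26 and 5.76 ± 0.43 in aged and young tissue (limma adjusted p = 0.386). Aplnr, the apelin receptor, was under the guide at 2.69 ± 0.17 in aged and 2.72 ± 0.23 in young tissue, and its other ligand, Apela, was under it as well, at 1.71 in aged and 1.67 in young tissue.

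**Figure D2:**
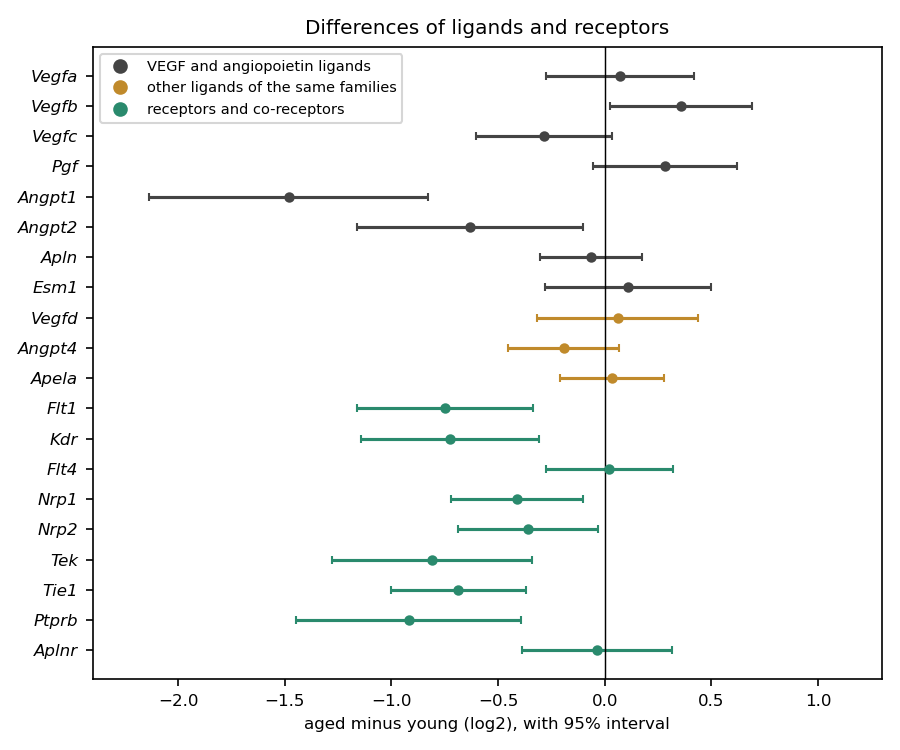
Log2 differences (aged minus young) with 95% intervals for the 8 ligand genes, 3 further ligands of the same families and 9 receptors and co-receptors. Angpt1 lies farthest left at -1.48, and 7 of the 9 receptors lie between -0.92 and -0.36 with intervals below 0.

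Endothelial markers stood lower beside these receptors. Of 13 endothelial markers 8 were lower at an unadjusted p under 0.05 and 0 higher, where 3.96% of all probe sets were lower. Limma called 0 of these markers over all genes, and their median log2 difference was -0.63. Their mean per array lay between 4.59 and 4.71 in aged and between 4.80 and 5.47 in young tissue. Among them, Plvap, the protein of the fenestral diaphragm, differed by -0.68, Podxl by -0.68 and the transcription factor Erg by -0.71, with Erg under the guide in aged tissue. Ramp2 alone of the 13 went the other way, by 0.14, and 5 of the 13 overlapped between ages. Mural cell markers, from cells that can supply Angpt1, had a mean of 4.43 to 4.60 in aged and 4.72 to 5.28 in young tissue. Of 10 mural markers 2 were lower at an unadjusted p under 0.05, Rgs5 by -0.73 and Pdgfrb by -0.82, and Myh11 followed at -0.36. Cspg4 alone of the 10 was higher in aged tissue, by 0.22. Markers of stromal fibroblasts, another source of Angpt1, had a mean of 5.37 to 5.77 in aged and 5.87 to 6.70 in young tissue. Of the 7 fibroblast markers 3 were lower at that level, Col1a2 by -0.66, Col1a1 by -1.16 and Lum by -0.46. Young replicate 3 had the highest mural and fibroblast means, and without it Col1a1 differed by -0.62, Pdgfrb by -0.44 and Myh11 by -0.19, while without aged replicate 2 Lum differed by -0.28. Limma called 0 mural and 0 fibroblast markers over all genes, with medians of -0.37 and -0.48. The part of these cell types in the ligand values was not tested.

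To set each ligand beside the endothelial RNA of its own array, the mean log2 value of the 13 endothelial markers was subtracted from it. With the Angpt2 and Angpt1 comparison this makes 9 such comparisons, in each of which the smallest exact p is 0.1. With Benjamini-Hochberg adjustment over the 8 ligand genes, no exact permutation p on this measure was under 0.16. Relative to the endothelial mean, Angpt1 was lower in aged than in young tissue by a log2 difference of -0.97, with overlapping groups (two-sided exact permutation p = 0.2). Angpt2 differed by -0.12 on this measure, with values of -0.15, -0.99 and -0.34 in aged and -0.46, 0.15 and -0.82 in young tissue (two-sided exact permutation p = 0.8), and its sign turned when aged replicate 2 or young replicate 2 was left out. Vegfc differed by 0.23 on this measure, with overlapping groups (two-sided exact permutation p = 0.6), and by only 0.033 without young replicate 3.

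Relative to the same mean, Vegfb was 0.87 and Vegfa 0.58 higher in aged tissue, without overlap (two-sided exact permutation p = 0.1 for each). The marker mean itself differed by -0.51, which is most of the shift of either gene, since Vegfb alone differed by 0.36 and Vegfa alone by 0.07. Without young replicate 3, which had the highest marker mean, the Vegfa shift was 0.37. Pgf, Esm1 and Apln were also higher on this measure, by 0.79, 0.62 and 0.45 (two-sided exact permutation p = 0.1 for each), but values at background stay nearly level while the marker mean moves, so these shifts say little of the genes, and that of Apln was 0.27 without young replicate 3.

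**Figure D3:**
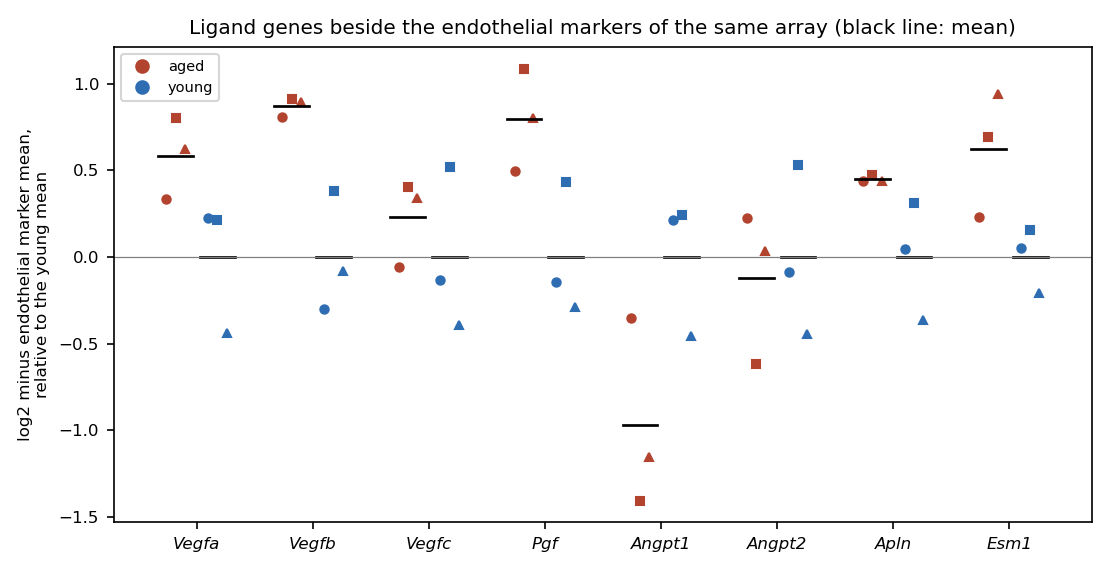
Log2 value of each ligand gene minus the mean of 13 endothelial markers on the same array, drawn relative to the young mean of that gene, aged points left of young points. Aged Vegfb points sit near 0.87 above the young mean, Angpt2 groups overlap around -0.12, and Angpt1 has a mean of -0.97.

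The genes that carry or report VEGF signalling were largely spread around 0. Of 13 signal transducers limma called 0 over all genes, and the median log2 difference was 0.02. At an unadjusted p under 0.05, where 3.82% of all probe sets were higher and 3.96% lower, 2 of the 13 were higher. Those were the kinase Src, at 6.29 ± 0.14 in aged and 5.92 ± 0.06 in young tissue, and the adaptor Shb, at 4.90 ± 0.29 in aged and 4.48 ± 0.12 in young tissue, followed by phospholipase Plcg1 with a difference of 0.16. Of 16 tip cell and VEGF response genes limma called 0 over all genes, and the median was 0.04. Igfbp3, which binds insulin-like growth factors, was the only one of the 16 with an unadjusted p under 0.05, with 5.46, 5.53 and 5.69 in aged mice, against 6.28, 6.24 and 6.20 in young mice (log2 difference -0.68, limma adjusted p = 0.128). The Notch target Hey2 differed by 0.29 and the calcineurin regulator Rcan1 by -0.32.

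Oxygen sensing, which controls Vegfa and other ligands through hypoxia-inducible factors, was covered by a pair of lists. Of 10 regulators limma called 0 over all genes, and the median log2 difference was -0.08. At an unadjusted p under 0.05, where 3.96% of all probe sets were lower and 3.82% higher, 1 regulator was lower and 1 higher. The lower one was the prolyl hydroxylase Egln3, itself a target of the pathway, which stood at 3.83 ± 0.61 in aged and 4.78 ± 0.48 in young tissue with overlapping groups. The higher one, Arnt2, a partner of the oxygen-regulated subunits, stood at 6.90 ± 0.28 in aged and 6.45 ± 0.23 in young tissue, and Hif3a lay under the guide in both. Of 19 further target genes limma called 0 over all genes, 3 were lower and 1 higher at an unadjusted p under 0.05, and the median was -0.16. Mxi1, a repressor of Myc, differed by -0.48, the stress-induced mTOR inhibitor Ddit4 by -0.41 and hexokinase Hk2 by 0.67.

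Among 10 secreted inhibitors of vessel growth, Sema3e, a repellent guidance ligand, was the single called gene. Over all probe sets 0.0198% were called lower and 0.0595% higher. Sema3e had values of 3.64, 3.06 and 3.42 in aged mice, against 5.26, 5.05 and 4.80 in young mice. Its log2 difference was -1.66 (limma adjusted p = 0.0272). The aged mean, 3.37, was under the guide, so the difference may be compressed, which was not tested. The call held without aged replicate 1 (limma adjusted p = 0.0168) and was lost without any other single array, where the log2 difference stayed between -1.78 and -1.51 with limma adjusted p from 0.0680 to 0.189. Sema3f differed by 0.38 and the matrix protein Thbs2 by -0.27, and the list's median was 0.08. Of the 10 inhibitors 2 were lower and 1 higher at an unadjusted p under 0.05, against 3.96% and 3.82% of all probe sets. Of 13 other angiogenic growth factors limma called 0 over all genes, and the median was -0.04. At an unadjusted p under 0.05, 3 of the 13 were lower and 1 higher, against 3.96% and 3.82% of all probe sets. Midkine, Mdk, a heparin-binding growth factor, had the largest difference of these 13, with 5.60, 6.68 and 6.88 in aged mice, against 4.47, 5.18 and 4.99 in young mice (log2 difference 1.51, limma adjusted p = 0.330). Without aged replicate 1, the omission with the most calls over all probe sets, the Mdk difference was 1.90 and passed (limma adjusted p = 0.0253). Igf1 stood at 5.02 ± 0.36 in aged and 5.83 ± 0.14 in young tissue, and Pdgfd, a ligand of the mural cell receptor, at 7.95 ± 0.09 in aged and 8.48 ± 0.20 in young tissue.

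**Figure D4:**
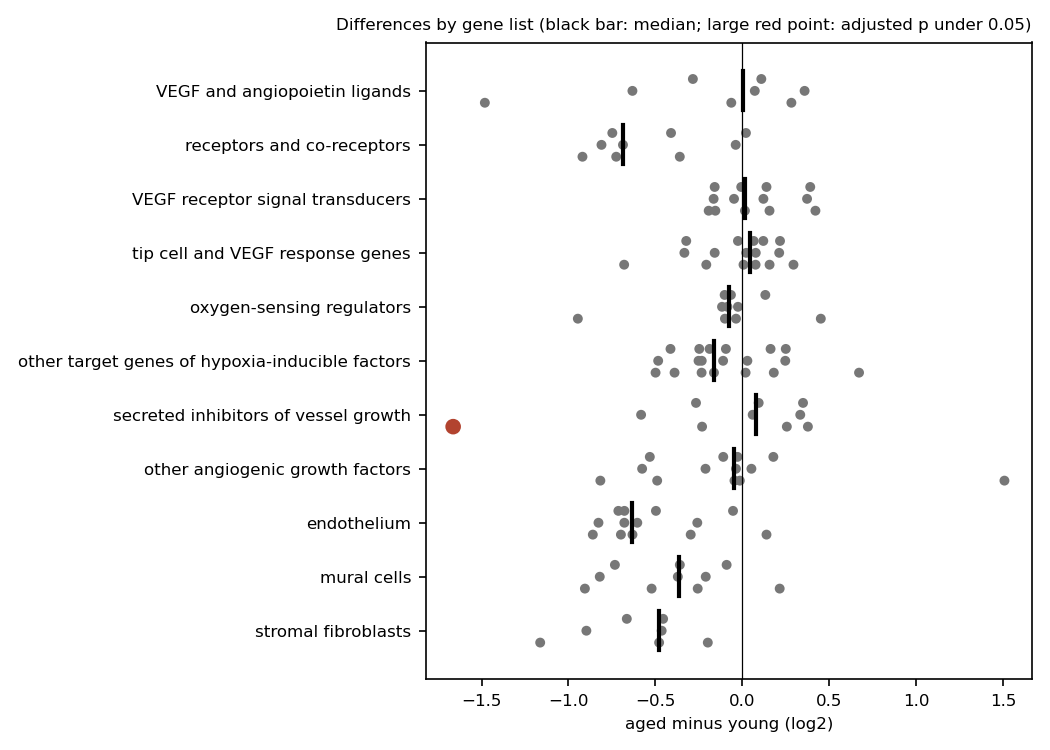
Log2 differences (aged minus young) of each member of 11 gene lists, with a black bar at the list median and a large red point where the adjusted p was under 0.05. The ligands are centred on 0 with Angpt1 at -1.48, the receptors and endothelial markers have medians of -0.69 and -0.63, and the one red point is Sema3e.

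For each ligand above the guide, the 3 genes with the most similar profile over the 6 arrays were found by Pearson r among 14906 candidates above the guide, as a description. The arrays fall into age groups, so a profile like that of Angpt1 holds its age difference too. Nearest to Angpt1 were Heph, an iron-exporting ferroxidase (r = 0.994, Spearman rho = 0.94), Atxn7l3b (0.993) and the vesicle GTPase Rab31 (0.991), and 296 genes, 1.99% of the candidates, exceeded an r of 0.9. Heph had 5.75, 4.91 and 4.85 in aged mice, against 6.55, 6.29 and 6.25 in young mice. Because Heph was picked for its likeness to Angpt1, its high value on aged replicate 1 is no separate observation. Nearest to Angpt2 were the spectrin Sptbn1, Dtd2 and the nuclear importin Kpna4 (r = 0.996, 0.993 and 0.992), where 364 candidates exceeded 0.9. Nearest to Vegfb were the RNA-binding protein Rbm42, Cdc42ep1 and the gelatinase Mmp2 (r = 0.998, 0.995 and 0.989), with 313 such candidates. For Vegfa, Vegfc and Esm1, where between 74 and 76 candidates exceeded 0.9, the nearest were Mir1964, 2410002F23Rik and Rps19-ps3.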

How the data were processed

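The authors deposited log2 expression values for 25206 probe sets, and per the file headers a probe set follows the Brainarray definition, with probes grouped by Entrez gene. RMA (background correction, quantile normalization and probe summary) and limma 3.14.4 are named in the submitters' processing notes. For the comparison of the ages, the authors deposited a signed fold, a t statistic (a score), q-values and p-values. For the array model and the genome build, no entry is given in the sources used here. Symbols were updated by Entrez identifier to RefSeq (GRCm38.p6), where 23740 of 25206 matched.

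The deposited log2 values of the whole table were fitted with limma 3.58.1 in R 4.3.3 (lmFit, eBayes), with age as the only term and Benjamini-Hochberg adjustment over every probe set. Differences are aged minus young, and genes with an adjusted p under 0.05 are called. The fit was tested on simulated arrays. RMA compresses differences near background and saturation, and the number of arrays limits precision.

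The ligand genes, gene lists, background guide and named-gene rule were chosen with earlier results of these data known. All ligands, receptors and related ligands are named. In each other list described by genes, called members and those with the smallest p are named, up to 3. Of 166 list entries 163 matched a probe set. Single comparisons used exact permutation tests. As alternatives, the value table at 2 decimals, renewed quantile normalization, centring on array medians, removal of dim probe sets, eBayes with a robust variance trend, weights per array, a replicate block and the loss of each array in turn were run. Replicate numbers name separate mice and do not pair them: deviations of same-numbered arrays correlated at -0.02, 0.15 and -0.05.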

Additional observations from a re-analysis of the deposited data

How the results depend on the processing

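For the ligand genes, the 59 values under settings that kept all arrays had the direction and the side of the threshold given above. Leaving out 1 array at a time, 1 ligand was called lower without aged replicate 1, Angpt1, and 0 otherwise. Across those fits the log2 difference ran from -1.83 to -1.25 for Angpt1, from -0.022 to 0.20 for Vegfa and from -0.026 to 0.27 for Esm1, the last 2 turning sign without aged replicate 2 and without aged replicate 3. It also ran from -0.36 to -0.18 for Vegfc and from 0.15 to 0.39 for Pgf. Relative to the endothelial marker mean, Angpt2 ran from -0.34 to 0.14, Vegfc from 0.033 to 0.49 and Vegfa from 0.37 to 0.71. With the replicate block, which pairs separate mice by number only, Angpt1 kept its difference of -1.48 with a limma adjusted p of 0.0750, and calls over all probe sets were 14 higher and 1 lower.

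Calls over all probe sets were unstable to single arrays, from 0 to 27 higher and from 0 to 25 lower. The highest counts on both sides came without aged replicate 1. The lower calls, 5 above, were 8 with quantile normalization, with median centring and above the median, 9 above the background guide and 11 with a variance trend. Without 1 array, list medians ran from -0.76 to -0.54 for receptors, -0.19 to -0.062 for targets of hypoxia-inducible factors, -0.15 to -0.053 for other growth factors and -0.0082 to 0.10 for transducers. With dim probe sets removed, and so fewer members, the inhibitor median was 0.18 above the guide and above the median, and the transducer median 0.058 and 0.12. The cause of these shifts was not tested. Low signal limits Pgf, Apln, Esm1 and the aged values of Angpt1, Tek and Sema3e, and Pgf and Apln had no value with dim probe sets removed, nor Esm1 with those under the median removed.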

Other observations

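Some values outside the ligand comparison varied between single animals and were picked out after they were seen. Prox1, a transcription factor of lymphatic endothelium that neural cells also express, was at 4.84 on aged replicate 1, against 2.56 and 2.78 on the other aged arrays and 2.78 to 3.08 on the young ones. The lymphatic receptor Lyve1 was at 3.57 on that array, within the range of the other aged arrays, 3.37 and 3.89. Hbb-b1, a red blood cell globin, was at 2.98, 3.30 and 2.69 in aged mice, against 2.03, 5.41 and 4.74 in young mice. Macrophage markers stood higher in aged tissue, with a mean over 9 genes of 5.27 to 5.96 in aged and 4.58 to 5.23 in young mice. Limma called 0 of them over all genes, while 7 were higher at an unadjusted p under 0.05. Over all probe sets 3.82% were higher at that level. Mrc1 alone of the 9 went the other way, by -0.29, and 2 of the 9 overlapped between ages.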
